A study of Zea mays with 9 samples.

Results

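Transcripts of an alternative oxidase, a superoxide dismutase and an aldehyde dehydrogenase were followed across 3 maize (Zea mays) lines. The members are the probe sets that the array annotation, or the synonyms of the RefSeq gene table, assign to aox1, Sod4A or rf2c. There are 4 of them among 17621 probe sets other than controls, and they belong to 4 loci, because the name aox1 is carried by 2 loci. The genes were picked with earlier results of these same arrays known, so their levels and differences are given as descriptions without a test.

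The plants were grown in a field, and their endosperm, which fills most of the kernel with starch and storage protein, was taken at 15 days after pollination. The lines were the inbred labelled ae wx (its name refers to amylose extender and to waxy, both starch genes), the inbred labelled sh1 (shrunken1, a sucrose synthase gene) and the inbred B73, each with 3 replicates that the labels call biological. No alleles are given, and the relation of either mutant inbred to B73 is not stated, so the named loci and the rest of each genome cannot be told apart. The 9 RNAs went onto 9 Affymetrix arrays. There several short probes against a transcript form a probe set and yield a single signal in arbitrary units. Each of the 4 loci is read by a single probe set found by name, so no other one checks its signal. Whether the probes match the sequence of all 3 lines equally was not tested. In RNA from a whole tissue, fewer cells of a type and less RNA per cell cannot be told apart either.

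Alternative oxidase sits in the inner mitochondrial membrane and passes electrons from ubiquinol straight to oxygen, bypassing the cytochrome pathway and the protons it would pump. Plants typically make more of it when the cytochrome pathway is held back or under stress. Superoxide dismutases turn superoxide, a by-product of respiration, into hydrogen peroxide, which catalases and peroxidases then remove. Aldehyde dehydrogenases oxidise reactive aldehydes to acids. One source of such aldehydes in the poorly oxygenated interior of the endosperm is fermentation, in which pyruvate decarboxylase makes acetaldehyde and alcohol dehydrogenase reduces it to ethanol.

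The genes that name the lines were read by the brightest probe set of each. The sh1 gene read 1686 to 1965 in sh1, against 15900 to 16149 in ae wx and 16903 to 18139 in B73, and wx1 read 4156 to 5666 in ae wx, against 9940 to 10706 in sh1 and 13907 to 15123 in B73. The ae1 gene was not lower in ae wx, at 11728 to 12085, against 9471 to 10211 in sh1 and 8974 to 10412 in B73, and without known alleles its transcript does not check the label. Median signal per array lay between 241.2 and 256.0. Controls with no maize target, 23 probe sets on each array, had mean signals of 42.5 to 53.0, and the brightest of them read between 108 and 227 across arrays. Their mean is used below as the background of an array. All 11 endosperm markers found on the array (zein, starch and regulator genes) were above it on every array. Their summed signal was 123136 to 128065 in ae wx, 121245 to 126202 in sh1 and 132617 to 137552 in B73. Single endosperm markers did not all move with the sum. The zein gene az22z1 averaged 18608, 4840 and 11507 in ae wx, sh1 and B73, az19D1 averaged 8234, 14914 and 15681, and zp27 averaged 22856, 22085 and 21969. Summed signals of markers of other kernel parts differed between some of the lines and overlapped between others, and markers of a kind did not all move alike. Embryo markers (3 found) summed to 7170 to 7684 in ae wx, 8562 to 10211 in sh1 and 9607 to 13175 in B73. Most of that sum was ole16, which averaged 8781 in sh1 and 8758 in B73, while glb1 averaged 485 in sh1 and 2680 in B73. Transfer layer markers (3 found) summed to 831 to 3422 in ae wx, 1063 to 2347 in sh1 and 358 to 453 in B73. Of these, mn1 averaged 221, 209 and 225 in ae wx, sh1 and B73, while meg2 averaged 943, 930 and 114. Green tissue markers (3 found) summed to 305 to 324 in ae wx, 284 to 338 in sh1 and 453 to 1017 in B73. Here rbcS averaged 98.6, 104 and 107 in ae wx, sh1 and B73, while psah1 averaged 76.6, 142 and 461. The part of these tissues in the results below was not tested.

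The alternative oxidase signal was seen on the sh1 arrays and not above background on those of ae wx or B73. Its probe set reads the locus LOC542074, to which the gene table gives the synonyms aox1 and aox2. The signal was 48.1, 39.5 and 44.1 on the ae wx arrays, 214.8, 674 and 720.3 on the sh1 arrays, and 38.2, 33.0 and 33.5 on the B73 arrays, replicates 1 to 3 in each case. Every sh1 array was above all 23 controls, while all ae wx and B73 arrays were below the control mean of their array. Line means were 43.9 ± 4.28 in ae wx, 536.3 ± 279 in sh1 and 34.9 ± 2.86 in B73 (SD, n = 3 each).

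Because ae wx and B73 were at background, a difference from either has a lower bound only. The sh1 line was at least 7.64-fold higher than B73 and ae wx at least 7.77-fold lower than sh1, each set against the control mean of the dim arrays. Those and all later differences are on the log2(signal + 16) scale, which understates changes of dim probe sets. The fitted difference was 3.27 ± 0.36 (SE, log2) for sh1 minus B73 and −3.03 ± 0.36 for ae wx minus sh1. Neither is itself a bound. These SEs rest on a spread estimated over all lines together, although the SD (log2) was 0.94 in sh1, 0.10 in ae wx and 0.08 in B73. With only the 2 lines compared in the fit, the SE for sh1 minus B73 was 0.41. No fold is given between ae wx and B73, since both were at background. The probe set passed the filter on dim signals, which kept 12414 probe sets, only through its 3 sh1 arrays.

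The sh1 arrays disagreed on how high this alternative oxidase stood. The highest of them was 3.35 times the lowest, against 1.22 times in ae wx and 1.16 times in B73. On the log2 scale sh1 replicate 1 was 1.63 below the mean of replicates 2 and 3, a gap exceeded in size by 26 of the 12414 probe sets kept. With sh1 replicate 1 left out the lower bound against B73 was 11.1-fold, and for that array alone it was 3.60-fold. Across all probe sets kept, sh1 replicates 2 and 3 were also the most alike of all pairs (r = 0.998, a description across probe sets).

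The other locus named aox1 showed no signal of this kind. LOC542073 carries aox1 as its only synonym. Its signal was 54.3, 42.8 and 46.0 in ae wx, 51.2, 45.0 and 46.1 in sh1, and 58.9, 54.7 and 47.0 in B73. These values overlapped between all lines and lay within the range of the controls, and the probe set did not pass the filter. The third alternative oxidase on the array, aox3, read 31.2 to 41.9 over the 9 arrays, below the control mean on each. The high sh1 signal therefore belongs to 1 of 3 probe sets found under an alternative oxidase name. Any among the 16168 probe sets without a gene symbol could not be found. The name aox1 is shared by LOC542073, which stayed near background and was above the control mean on 6 of 9 arrays.

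**Figure D1:**
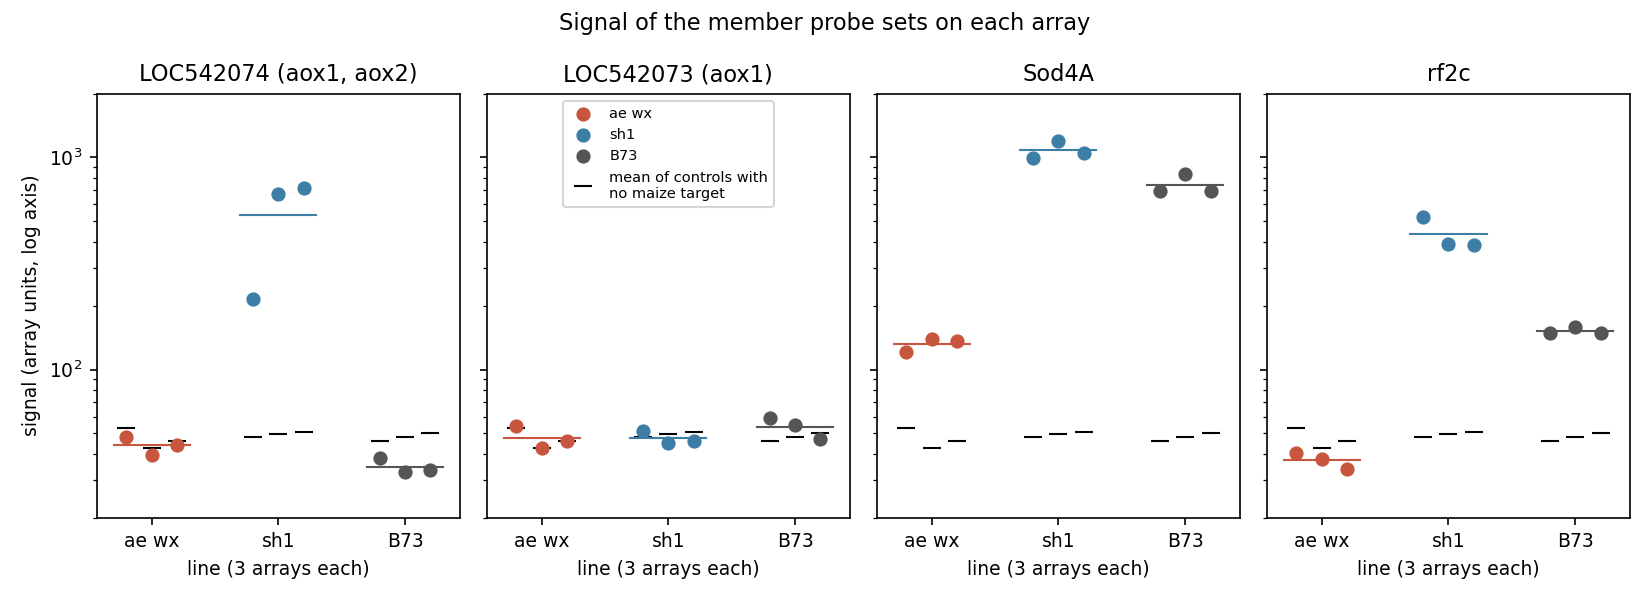
Signal of the 4 member probe sets on each of the 9 arrays (log axis), with the line mean as a coloured bar and the mean of controls with no maize target on that array as a black dash. LOC542074 is above its controls on the sh1 arrays alone, with replicate 1 at 214.8 below the other sh1 arrays, LOC542073 stays near the controls in all lines, Sod4A is lowest in ae wx, and rf2c runs from background in ae wx to 521 in sh1.

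Sod4A, a cytosolic copper-zinc superoxide dismutase, was lowest in ae wx and highest in sh1. Its signal was 121, 139 and 137 on the ae wx arrays, 996, 1191 and 1050.3 on the sh1 arrays, and 693, 839 and 695 on the B73 arrays. The groups did not overlap in any of the 3 comparisons, although the gap between sh1 and B73 was narrow beside their spread. Line means were 132 ± 10.1 in ae wx, 1079 ± 101 in sh1 and 742 ± 83.7 in B73 (SD, n = 3 each). All arrays were above background, but 2 of the 23 controls read as high as Sod4A on ae wx replicate 1.

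In ae wx the Sod4A signal was 5.11-fold below B73 (log2 difference −2.35 ± 0.11 SE) and 7.38-fold below sh1 (−2.88 ± 0.11). The difference between sh1 and B73 was 1.45-fold (0.53 ± 0.11). Larger differences in size were found for 2.43% of probe sets kept in ae wx against B73 and 0.975% in ae wx against sh1, but for 34.1% in sh1 against B73. The small difference of sh1 from B73 depends on how the arrays are scaled, and was 0.94 when arrays were set to equal signal of the hybridization controls, which read lower by 0.42 (log2) in sh1 than in B73.

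The gene rf2c, a cytosolic aldehyde dehydrogenase, had the same order of lines. Its signal was 40.4, 37.7 and 34.1 on the ae wx arrays, 521, 393 and 387 on the sh1 arrays, and 148.3, 159 and 148.1 on the B73 arrays. The ae wx arrays were below the control mean, and no groups overlapped. Line means were 37.4 ± 3.15 in ae wx, 433 ± 76.1 in sh1 and 152 ± 6.50 in B73 (SD, n = 3 each).

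The sh1 line stood 2.65-fold above B73 for rf2c (log2 difference 1.41 ± 0.12 SE), and 7.79% of probe sets kept had a larger difference. With ae wx at background, ae wx was at least 2.66-fold lower than B73 and at least 7.07-fold lower than sh1. The fitted values, which are no bounds, were −1.65 ± 0.12 and −3.06 ± 0.12. Within sh1, replicate 1 had the highest rf2c signal, 0.41 (log2) above the mean of the other arrays, whereas it had the lowest LOC542074 signal. For Sod4A that array was 0.17 below the others.

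Each of the 3 members kept by the filter had arrays that did not overlap between the lines compared, in every comparison in which both lines were not at background. This also held for 60.1% of probe sets kept in ae wx against B73, 60.9% in sh1 against B73 and 62.6% in ae wx against sh1, and nothing is read from the members' count, since they were chosen on such differences. The comparisons with B73 share its 3 arrays. What these 3 members, unlike LOC542073, have in common is the order of sh1 above ae wx. They differ in B73, which lies at background for LOC542074, between the other lines for rf2c, and close to sh1 for Sod4A. Profiles centred on their mean over the 9 arrays were 0.42 apart for Sod4A and rf2c (root mean square distance, log2), 1.05 for LOC542074 and rf2c, and 1.33 for LOC542074 and Sod4A.

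**Figure D2:**
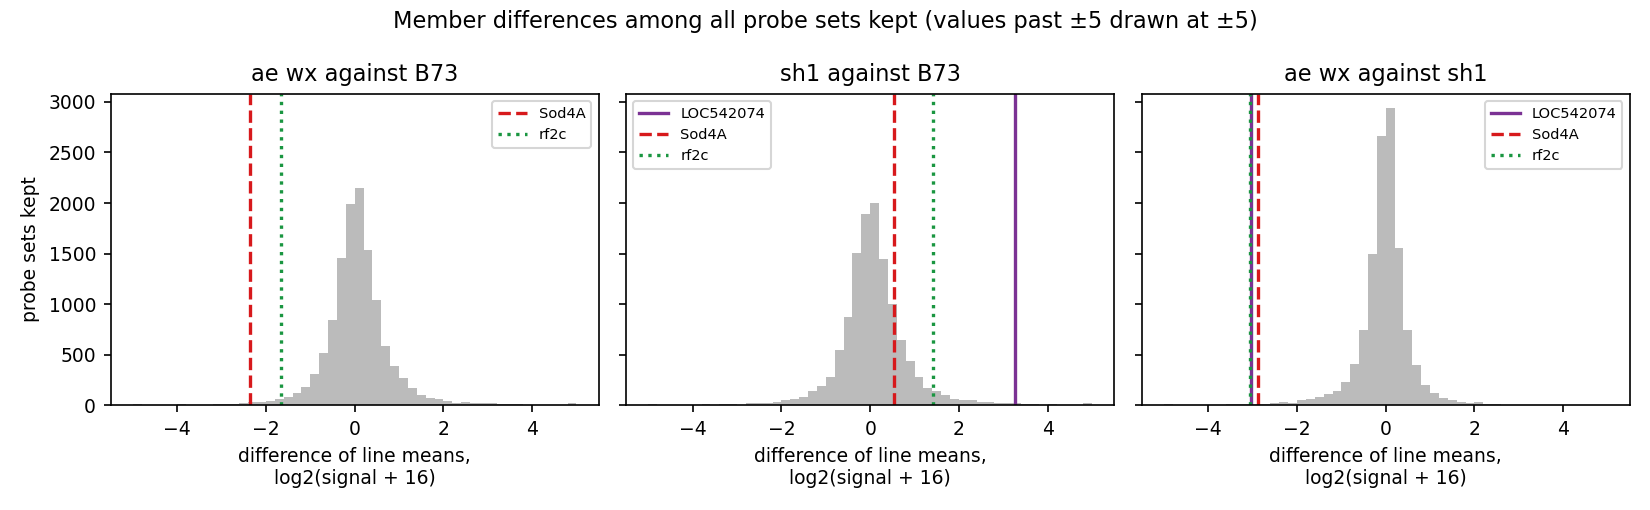
Histograms of the difference of line means on the log2(signal + 16) scale over the 12414 probe sets kept, one panel per comparison, with the fitted differences of the members as vertical lines. LOC542074 is left out where both lines were at background. In ae wx against sh1 all 3 members lie near −3, and in sh1 against B73 Sod4A lies within the bulk at 0.53.

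Other enzymes of oxygen-radical scavenging on the array moved in both directions. Of 9 genes besides Sod4A, 5 were higher and 2 lower in ae wx than in B73 (limma, adjusted p under 0.05), where 53.4% of all probe sets kept were called, 29.0% higher and 24.3% lower. In sh1 against B73, 6 were higher and 3 lower, beside 55.9% of all probe sets, 30.4% higher and 25.4% lower, and under hybridization control scaling 6 were higher and 1 lower. In ae wx against sh1, none was higher, also at an unadjusted p under 0.05, and 3 were lower, beside 36.6% of all probe sets, 17.8% higher and 18.8% lower. The median difference of the 9 genes was 0.26 in ae wx against B73, 0.60 in sh1 against B73 and −0.03 in ae wx against sh1 (log2), and that of all probe sets kept was 0.04, 0.04 and 0.004.

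The other superoxide dismutases were higher in both mutant lines than in B73. The cytosolic copper-zinc gene sod2 averaged 1104 ± 55.1 in ae wx, 2048 ± 244 in sh1 and 786 ± 138 in B73 (SD, n = 3 each). Its difference was 0.49 ± 0.14 (SE, log2) in ae wx against B73 (adjusted p = 0.0128), 1.37 ± 0.14 in sh1 against B73 (adjusted p = 2.38e-05) and −0.88 ± 0.14 in ae wx against sh1 (adjusted p = 7.86e-04). A dimmer probe set of sod2 gave only 0.26 for sh1 against B73 (adjusted p = 0.0479), and 0.19 and −0.07 in the other comparisons, which were not called. The mitochondrial manganese enzyme sod3 was 0.33 ± 0.08 higher in ae wx (adjusted p = 0.00763) and 0.31 ± 0.08 higher in sh1 (adjusted p = 0.00938) than in B73.

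The catalases, which break down hydrogen peroxide, moved in different directions. Signals of cat2 were 75.2, 71.8 and 64.7 in ae wx, 524, 255 and 259 in sh1, and 83.4, 102 and 139 in B73. It was higher in sh1 than in B73 (1.49 ± 0.25 SE, log2, adjusted p = 7.56e-04) and lower in ae wx than in sh1 (−1.99 ± 0.25, adjusted p = 2.05e-04). In ae wx against B73 it gave −0.50 and was not called (adjusted p = 0.123). That difference was called with only the 2 lines compared, and also with sh1 replicate 1 left out. For cat3, in contrast, both mutant lines were lower than B73, by −1.26 ± 0.16 in ae wx and −1.23 ± 0.16 in sh1 (adjusted p = 1.44e-04 and 1.53e-04). For cat1 the differences from B73 were −0.48 in both, and the call in sh1 (adjusted p = 0.00836) ended when arrays were scaled to the hybridization controls. Its other probe sets gave −0.66 and −0.17 in ae wx against B73, the last not called (adjusted p = 0.169), and −0.65 and −0.40 in sh1 against B73.

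Among the reducing systems, the thioredoxin h gene trh2 was higher in ae wx (1.35 ± 0.16 SE, log2) and in sh1 (1.30 ± 0.16) than in B73, as was trxh1 (0.88 ± 0.19 and 0.99 ± 0.19). The glutathione reductase gene gsr1 was 0.60 ± 0.09 higher in sh1 than in B73 (adjusted p = 4.43e-04). Its difference in ae wx, 0.26 (adjusted p = 0.0393), was no longer called under 12 other settings, among them median centring and leaving out any single ae wx array. In ae wx against sh1 it gave −0.34 ± 0.09 (adjusted p = 0.0169), a call that ended without ae wx replicate 1, sh1 replicate 2 or sh1 replicate 3. The ascorbate peroxidase gene apx2 gave −0.26 in sh1 against B73 (adjusted p = 0.0296), a call lost with the replicate block, with only the compared lines in the fit, with a spread of its own for each line, and without B73 replicate 1 or 2 or sh1 replicate 1 or 2. Its sign was the opposite (0.15) under hybridization control scaling.

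**Figure D3:**
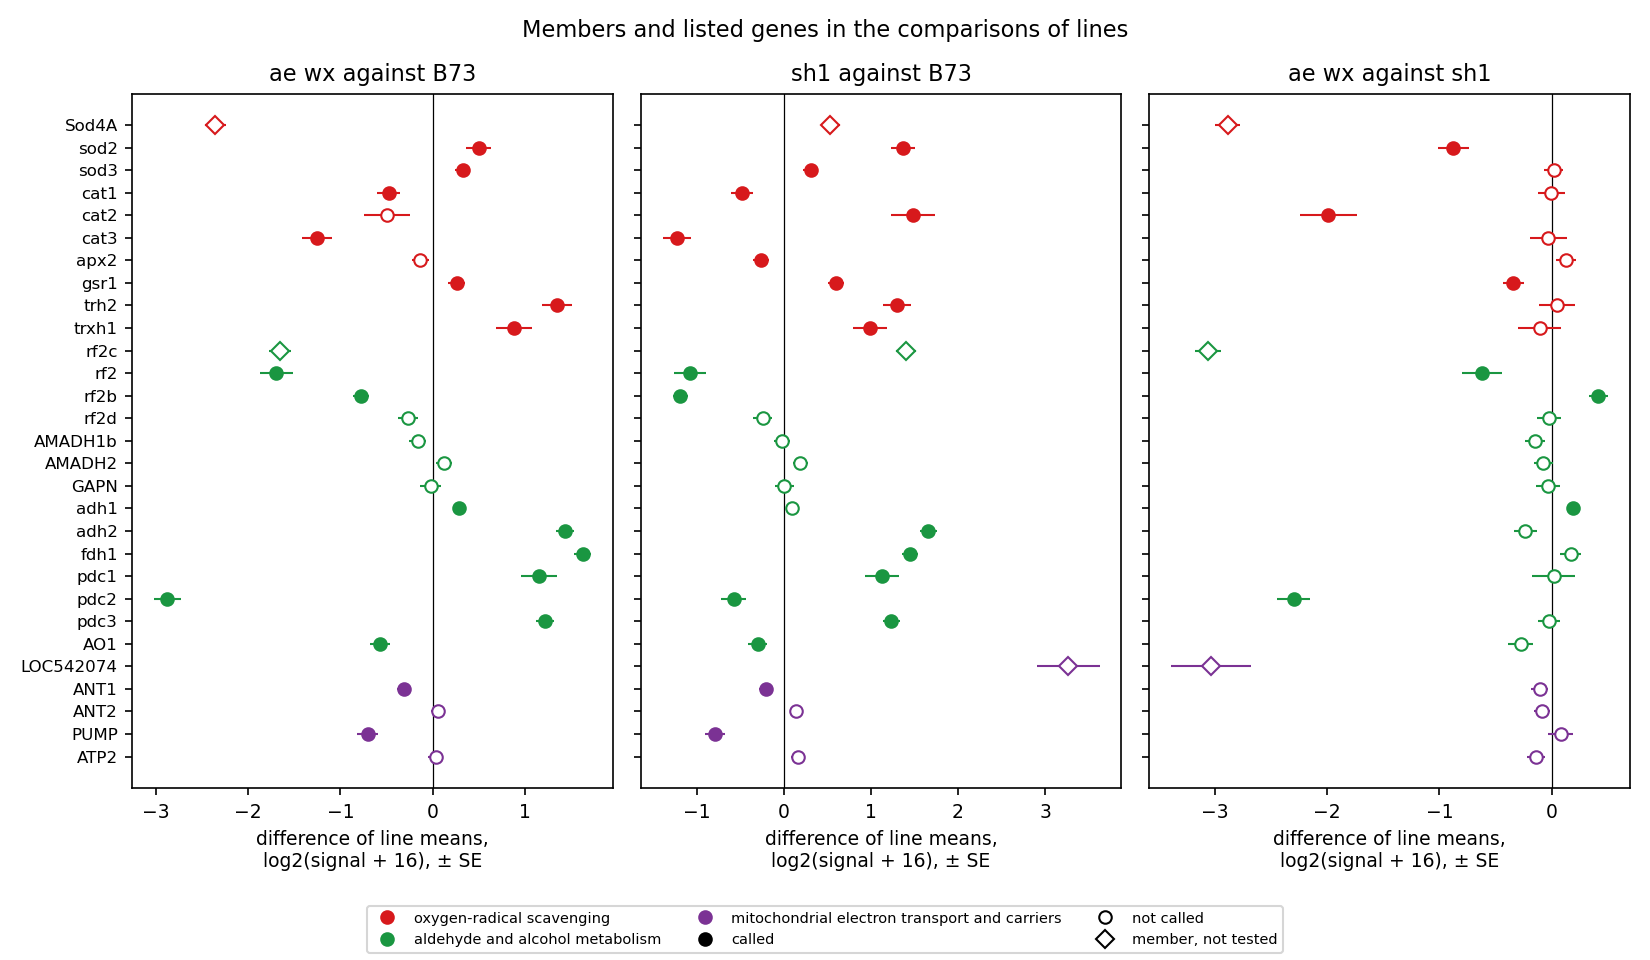
Differences of line means with standard errors on the log2(signal + 16) scale for the members (diamonds, not tested) and the listed genes (circles, filled where limma's adjusted p was under 0.05), one panel per comparison. Sod4A and sod2 lie on opposite sides of 0 in ae wx against B73, and rf2c lies opposite to rf2 and rf2b in sh1 against B73.

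Of the other aldehyde dehydrogenases, those of mitochondria were lower in both mutant lines than in B73, also where rf2c was higher. The gene rf2, which takes part in restoring fertility to plants with male-sterile T cytoplasm, averaged 388 ± 25.6 in ae wx, 609 ± 105 in sh1 and 1316 ± 320 in B73 (SD, n = 3 each). Its difference was −1.69 ± 0.18 (SE, log2) in ae wx against B73 (adjusted p = 3.95e-05) and −1.08 ± 0.18 in sh1 against B73 (adjusted p = 6.88e-04). In ae wx against sh1 it gave −0.62 ± 0.18 (adjusted p = 0.0225), a call that ended without ae wx replicate 1 or 2 or sh1 replicate 1 or 3. The other mitochondrial gene, rf2b, read 1705 ± 40.2 in ae wx, 1276 ± 79.8 in sh1 and 2930 ± 187 in B73. It differed by −0.77 ± 0.09 in ae wx against B73 and −1.19 ± 0.09 in sh1 against B73 (adjusted p = 5.32e-05 and 2.41e-06). It was higher in ae wx than in sh1 (0.41 ± 0.09, adjusted p = 0.00400), but not when arrays were scaled to the hybridization controls.

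The cytosolic gene rf2d read 229 ± 10.3 in ae wx, 233 ± 14.1 in sh1 and 281 ± 41.9 in B73. It gave −0.27 ± 0.11 in ae wx and −0.24 ± 0.11 in sh1 against B73, neither called (adjusted p = 0.0621 and 0.0829). Both were called under quantile normalization, under median centring and without B73 replicate 3, and the difference in sh1 changed sign (0.15) under hybridization control scaling. The aminoaldehyde dehydrogenase genes AMADH1b and AMADH2 and the non-phosphorylating glyceraldehyde-3-phosphate dehydrogenase gene GAPN were not called in any comparison either, with differences from −0.16 to 0.19, although each was called in at least 1 comparison under hybridization control scaling.

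Over the whole list of aldehyde and alcohol metabolism, 13 of 14 genes besides rf2c passed the filter. In ae wx against B73, 5 were higher and 4 lower, which is 69.2% of those tested beside 53.4% of all probe sets kept. In sh1 against B73, 4 were higher and 4 lower, 61.5% beside 55.9%, and in ae wx against sh1, 2 were higher and 2 lower, 30.8% beside 36.6%. These shares are near those of all probe sets. The directions depend on the scaling, since hybridization control scaling gave 6 higher and 4 lower, 8 higher and 2 lower, and 0 higher and 6 lower in the same order. The medians were −0.02, 0.01 and −0.03 (log2). Higher in both mutant lines than in B73 was fdh1, a glutathione-dependent formaldehyde dehydrogenase, by 1.62 ± 0.09 in ae wx and 1.45 ± 0.09 in sh1 (SE, log2). The alcohol dehydrogenase adh2 was higher by 1.43 and 1.66, and the pyruvate decarboxylases pdc3 by 1.21 and 1.23 and pdc1 by 1.15 and 1.13. Another pyruvate decarboxylase, pdc2, went the other way, at −2.87 ± 0.14 in ae wx and −0.57 ± 0.14 in sh1 against B73, where the call in sh1 ended under hybridization control scaling. Its other probe sets gave −2.60 to −1.08 in ae wx against B73 and −1.89 to −0.79 in ae wx against sh1, all called. Like Sod4A and rf2c it was lower in ae wx than in sh1 (−2.30 ± 0.14, adjusted p = 1.39e-06). The other alcohol dehydrogenase, adh1, was 0.29 ± 0.05 higher in ae wx than in B73 (adjusted p = 0.00156), a call that held in every setting. It was 0.19 ± 0.05 higher in ae wx than in sh1 (adjusted p = 0.0194), with the opposite sign (−0.045) under hybridization control scaling. That call also ended with sh1 replicates 2 and 3 averaged and without ae wx replicate 1 or 2 or sh1 replicate 1 or 2. The aldehyde oxidase gene AO1 was −0.57 ± 0.11 in ae wx against B73 (adjusted p = 0.00174), and AO2 was too dim to be kept.

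The list of mitochondrial electron transport and carriers held 5 genes besides the members. The alternative oxidase aox3 did not pass the filter, and 4 genes of carriers or of ATP synthase did. In each mutant line 2 of them were lower than in B73 and none was higher, so that 2 of 4 were called, beside 53.4% of all probe sets kept in ae wx and 55.9% in sh1, a share near that of all. In sh1 against B73 the list had 2 higher and 1 lower under hybridization control scaling and without B73 replicate 3. None was called in ae wx against sh1. At an unadjusted p under 0.05 the last count was 0 as well, and it was 3 when arrays were scaled to the hybridization controls. The uncoupling protein gene PUMP, whose product lets protons leak back across the inner membrane, averaged 1244 ± 54.1 in ae wx, 1176 ± 55.1 in sh1 and 2053 ± 300.2 in B73 (SD, n = 3 each). It differed by −0.71 ± 0.11 (SE, log2) in ae wx and −0.79 ± 0.11 in sh1 against B73 (adjusted p = 5.46e-04 and 2.57e-04). The adenine nucleotide translocator gene ANT1, which exchanges ATP for ADP, was −0.31 ± 0.08 in ae wx against B73 (adjusted p = 0.00639), a call that ended under hybridization control scaling. Its −0.20 in sh1 (adjusted p = 0.0421) was no longer called under 11 other settings, among them the replicate block and leaving out any single ae wx array. It had the opposite sign (0.21) under hybridization control scaling. ANT2 and ATP2, the beta subunit of the mitochondrial ATP synthase, gave values from −0.14 to 0.17, none of them called. Both were higher and called in sh1 against B73 under hybridization control scaling (0.56 and 0.58) and without B73 replicate 3.

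The named genes nearest to each member in pattern were found by the root mean square distance between profiles over the 9 arrays. Each profile was centred on its own mean. The search ran among 1076 probe sets with 1 gene symbol, members left out. For LOC542074 these were dehydrin3 (0.48), a dehydrin gene, glct1 (0.52), a glucose translocator gene, and rop6 (0.53), a small GTPase gene. The matching dehydrin3 probe set gave 2.32 in sh1 against B73, and the other probe sets of that gene gave 2.10 and 0.46. The match with glct1 rests on 1 of its 5 probe sets, since the others gave −1.84 to −1.33 in sh1 against B73 where the matching one gave 2.82. For Sod4A the nearest were GP (0.21), EF1-A (0.26) and o2 (0.45), the bZIP activator of zein genes. The matching o2 probe set gave −1.84 in ae wx against B73, but its other probe set gave −0.18, and the EF1-A probe sets likewise ran from −2.22 to 0.21. For rf2c they were tip4d (0.44), a water channel gene of the vacuolar membrane, lim1 (0.49) and EF1-A (0.54). The member Sod4A, at 0.42, was nearer to rf2c than these, and rf2c was nearer to Sod4A than o2. Among 12411 probe sets kept other than members, named or not, the nearest lay at 0.22 for LOC542074, 0.13 for Sod4A and 0.17 for rf2c. LOC542074 itself varied by 1.55 about its mean, Sod4A by 1.26 and rf2c by 1.26, so the distances are smaller than the range of each pattern.

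**Figure D4:**
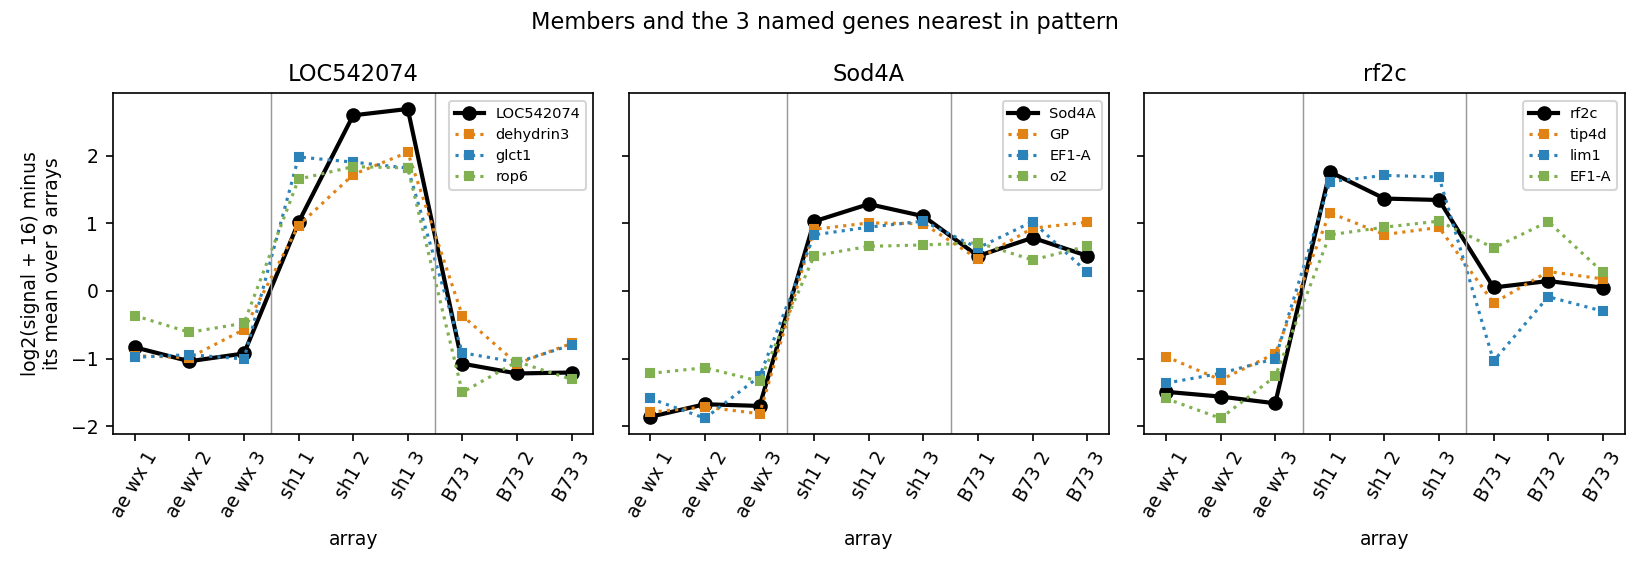
Profiles of LOC542074, Sod4A and rf2c (black) and of the 3 named genes nearest to each (coloured), other members left out. Values over the 9 arrays are log2(signal + 16) minus the mean over arrays. The LOC542074 profile rises above its neighbours on sh1 replicates 2 and 3, and the Sod4A profile follows GP most closely, at a distance of 0.21.

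Some signs of RNA quality and array brightness differed between lines, and the control transcripts did not all move alike. The ratio of 3′ to 5′ signal of control transcripts (log2) was 0.48 for GAPDH in sh1 against −0.10 in B73, 1.71 for EF1a in ae wx against 1.33 in B73, and 0.06 in ae wx and 0.02 in sh1 for cyclophilin against 0.40 in B73. The arrays did not overlap in these cases. They did overlap with B73 for EF1a in sh1 (1.27) and for GAPDH in ae wx (−0.01). For actin the ratio was −1.11 in ae wx, −1.30 in sh1 and −0.51 in B73, with arrays that overlapped between all lines. Hybridization controls, which are added to every sample, read lower by 0.18 (log2) in ae wx than in B73. Their part in the differences of the members was not tested, except that every member difference kept its sign when arrays were scaled to these controls.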

How the data were processed

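Per the submitters' processing notes GCOS 1.4 was used, with no role given. How probes were summarised and arrays scaled is not given in the sources used here. As deposited by the authors, each array has a linear intensity for every probe set, without detection calls. The table holds 17734 probe sets, 113 of them controls. Of the others, 1452 have 1 gene symbol, 1 has several and 16168 have none. Entrez identifiers led to a RefSeq entry (assembly Zm-B73-REFERENCE-NAM-5.0, for names only) for 1377, Sod4A not among them. No sequences were used here.

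Values were used as deposited, since trimmed means (2% trimmed) differed between arrays by 9.72% at most. The filter asked for 20% of an array's trimmed mean (124.7 to 136.8) or more in 3 or more arrays, and 12414 probe sets passed. Log2(signal + 16) was fitted with limma 3.58.1 in R 4.3.3 (a mean for each line, fitted to the 9 arrays together, eBayes with an intensity trend, two-sided, Benjamini-Hochberg adjustment over all probe sets kept, called under 0.05). The p-values measure the spread between samples that the labels call biological replicates, with a precision set by how few arrays there are. Tested on simulated data of 12414 probe sets, with 100 changed by 2-fold in each comparison, the fit recovered 93%, 89% and 87% for ae wx and for sh1 against B73 and for ae wx against sh1. Of another 100 changed by 1.5-fold in the same runs it recovered 65%, 64% and 64%, and some calls of listed genes above are of smaller differences. It also called 93, 92 and 13 unchanged ones, which in the comparisons with B73 is a far larger share of calls than the 0.05 aimed at. Far fewer probe sets were changed there than were called in the data, and whether that share holds in the data was not tested. The median SD between replicates (log2) was 0.07 in ae wx, 0.08 in sh1 and 0.18 in B73.

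For each gene the probe set with the highest mean stood for it. The members and the lists (oxygen-radical scavenging, aldehyde and alcohol metabolism, mitochondrial electron transport and carriers) were chosen with earlier results of these data known. Lists were matched by symbol and synonym, since the tables hold no gene descriptions, and in them the family names trx, trh, gapn and aldh were read with any letter or number that follows. Named were up to 5 called genes per list and comparison with arrays that did not overlap, or the 2 brightest where none was called. Also named were the 3 nearest genes in pattern per member, other members left out. Listed genes, or comparisons of them, given beyond this rule (such as sod3, apx2, rf2d, AMADH1b, AMADH2, GAPN, AO1, AO2 and aox3) were chosen after their values were seen. Alternatives were other scalings, pseudocounts, filters, spreads, a replicate block and leaving out each array; the scaling to hybridization controls was added after seeing the data. Python 3.11.15 and matplotlib 3.10.9 made the figures.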

Additional observations from a re-analysis of the deposited data

How the results depend on the processing

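No difference of a member changed sign under the alternatives run, which for the members were other scalings and pseudocounts, only the lines compared, the replicate block, sh1 replicates 2 and 3 averaged, and each array left out. Under hybridization control scaling, chosen after seeing the data, Sod4A gave −2.18 and 0.94 for ae wx and sh1 against B73 and −3.12 for ae wx against sh1, rf2c −1.49, 1.80 and −3.29, and LOC542074 0.35 in ae wx against B73, where both lines were at background. With a pseudocount of 64, LOC542074 gave 0.13, 2.46 and −2.34 in the same order, rf2c −1.09, 1.19 and −2.28, and Sod4A −2.04 in ae wx against B73 and −2.54 in ae wx against sh1. With a pseudocount of 1, Sod4A gave −3.02 in ae wx against sh1, and rf2c −2.00 in ae wx against B73 and −3.49 in ae wx against sh1. Leaving out 1 array in turn, LOC542074 ran from 0.18 to 0.29, 2.97 to 3.81 and −3.58 to −2.74, Sod4A from −2.40 to −2.26, 0.46 to 0.62 and −2.94 to −2.81, and rf2c from −1.69 to −1.61, 1.27 to 1.48 and −3.13 to −2.93.

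The median of all probe sets kept shifted under that scaling to 0.21, 0.43 and −0.23 (log2), and the share of calls that were higher was 72.4%, 86.6% and 19.8%, against 54.4%, 54.5% and 48.7% as deposited. Listed genes that changed sign there and were called with either scaling were apx2 (0.15), AMADH1b (0.40), AO1 (0.11) and ANT1 (0.21) in sh1 against B73, and adh1 (−0.045) in ae wx against sh1, and further differences called with neither also changed sign. Of 44 calls of listed genes 33 held in every setting run. In the aldehyde list 7 genes were called in ae wx against sh1 with only the 2 lines compared, with a spread of its own for each line or with every probe set counted, against 4, and 2 to 5 without 1 array (2 without ae wx replicate 2 or sh1 replicate 1). In the mitochondrial list, hybridization control scaling gave 1 in ae wx against B73 and 3 in ae wx against sh1. In sh1 against B73 that list had 1 call, PUMP, in place of 2 with no filter, only the 2 lines compared, a spread of its own for each line, the replicate block or sh1 replicates 2 and 3 averaged, and 1 to 3 without 1 array. All other totals of calls stayed within 1.5 times, but splits by direction did not: under hybridization control scaling the aldehyde list had 8 higher and 2 lower in sh1 against B73 (4 and 4 as deposited) and 0 and 6 in ae wx against sh1 (2 and 2), and the scavenging list 6 and 1 in sh1 against B73 (6 and 3). Replicate numbers did not pair the arrays (correlations of deviations −0.23 to 0.14 for equal numbers), and with the replicate block 6205, 6476 and 4020 probe sets were called, against 6624, 6939 and 4544. Dim signals limit the bounds given for LOC542074 and rf2c.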
